A study of Equus caballus with 2 samples.

Results

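Adrenomedullin, the vascular endothelial growth factors (VEGF), the angiopoietins and endothelin 1 are secreted signals through which stromal cells address blood and lymph vessels. A list of 10 such genes was followed in cultured equine endometrial fibroblasts: *ADM*, *VEGFA*, *VEGFB*, *VEGFC*, *PGF*, *ANGPT1*, *ANGPT2*, *ANGPTL4*, *EDN1* and the endothelin receptor gene *EDNRA*. The list was chosen from measured values, because *ADM* stood among the genes with the largest differences between these same libraries. The differences given below are therefore a description and not a test. By gene symbol, 9 of the 10 genes were found among the 21426 genes of the count tables. *VEGFB* was not matched and is not analysed here.

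Single cell RNA sequencing (10x Genomics, 3′ chemistry) had been carried out on passage-3 fibroblasts isolated from the endometrium of mares. All cells were grown on collagen-coated hydrogels in medium with 10% fetal bovine serum (FBS) and then 4% FBS. From 48 h to 72 h of culture the serum was replaced by 0.1% bovine serum albumin. During these 24 h the control cells received no supplement, and the TGF-β1 cells received 10 ng/ml human recombinant transforming growth factor beta 1, a cytokine that drives fibroblasts towards myofibroblasts. Each group consisted of 1 library in which the cells of the same 4 mares had been pooled. The study separated the pools into mares from the genotypes in the reads, but this assignment was not used here, so the spread between mares could not be taken into account. The treatment and the library preparation cannot be told apart, no p-value can be given, and all intervals below are exact 95% intervals that cover counting error only. Cells treated with mouse recombinant MFGE8 instead are part of the study and are not analysed here.

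Adrenomedullin is a vasodilating peptide that has to be amidated by the enzyme PAM and binds the receptor CALCRL when this is paired with RAMP2 or RAMP3. VEGF-A acts on KDR and FLT1 of blood vessel endothelium and VEGF-C mainly on FLT4 of lymphatic endothelium, with neuropilins as co-receptors. The angiopoietins bind the endothelial receptor TEK, and endothelin 1, matured by ECE1, constricts vessels through EDNRA while EDNRB also clears it. ANGPTL4 inhibits lipoprotein lipase and is a known target of peroxisome proliferator-activated receptors (PPAR) and of hypoxia. In the endometrium such signals accompany the cyclic growth and regression of vessels.

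Cells with at least 20000 unique molecular identifiers (UMIs, each standing for 1 captured transcript), 3500 genes and less than 4% mitochondrial UMIs were kept. This left 3865 of 4384 barcodes in the control library and 4513 of 5124 in the TGF-β1 library, with 210497250 and 219731144 UMIs and a median of 50313 and 43142 UMIs per cell. Between the libraries 6 barcodes were shared, 2 of them among the kept cells. Levels are given as UMIs summed over a library per 1000000 of its UMIs (CPM). As the libraries differed in depth per cell, shares of cells with a UMI were taken after drawing 20000 UMIs from every cell.

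The label of the cells as fibroblasts was checked with marker genes. The 8 fibroblast markers summed to 21634 CPM in the control and 21746 CPM in the TGF-β1 library. Of these 8 markers 4 were higher and 4 lower after TGF-β1, led by collagen genes on the one side (*COL1A1* 5608 and 6376 CPM) and by *PDGFRA* (50.5 and 16.7 CPM) and *THY1* (216 and 87.5 CPM), both more than 2-fold lower, on the other. *VIM* had 4399 and 2240 CPM. Endothelial cells are the main target of these ligands. Of 12 endothelial markers 4 reached a mean of 1 CPM, and the 12 summed to 19.9 CPM in control and 30.9 CPM after TGF-β1, carried mainly by *ERG*. The defining endothelial genes were near 0, with 9 and 8 UMIs of *PECAM1* and 3 and 2 UMIs of *CDH5*. The 9 mural cell markers summed to 828 and 708 CPM and 6 of them reached a mean of 1 CPM, led by *DES* (646 and 569 CPM), *PDGFRB* (80.1 and 49.0 CPM), *RGS5* (51.7 and 61.1 CPM) and *MYH11* (42.9 and 25.3 CPM). *MCAM* was more than 2-fold lower (5.78 and 1.75 CPM), and *KCNJ8* was at 0 in both libraries. The epithelial markers summed to 115 and 5.27 CPM, nearly all of it *KRT8*, the immune markers to 56.7 and 52.9 CPM, carried by *CD68* (42.6 and 43.1 CPM) and *CD14* (14.0 and 9.75 CPM) with 1 and 0 UMIs of *PTPRC*, and the cycling markers to 71.7 and 52.6 CPM. The part of these differences in the results below was not tested.

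A mean of at least 1 CPM was reached by 8 of the 9 genes. Of these 8, 2 were more than 2-fold lower after TGF-β1 (*ADM* and *ANGPTL4*), 2 were more than 2-fold higher (*VEGFA* and *EDN1*) and 4 lay within 2-fold, with a median log2 ratio of −0.66. Among all 12116 genes at this level, 3.46% were more than 2-fold lower and 3.45% more than 2-fold higher, with a median log2 ratio of −0.01. Nothing is read from the counts of the listed genes against this background, as the list was drawn from the same contrast.

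**Figure D1:**
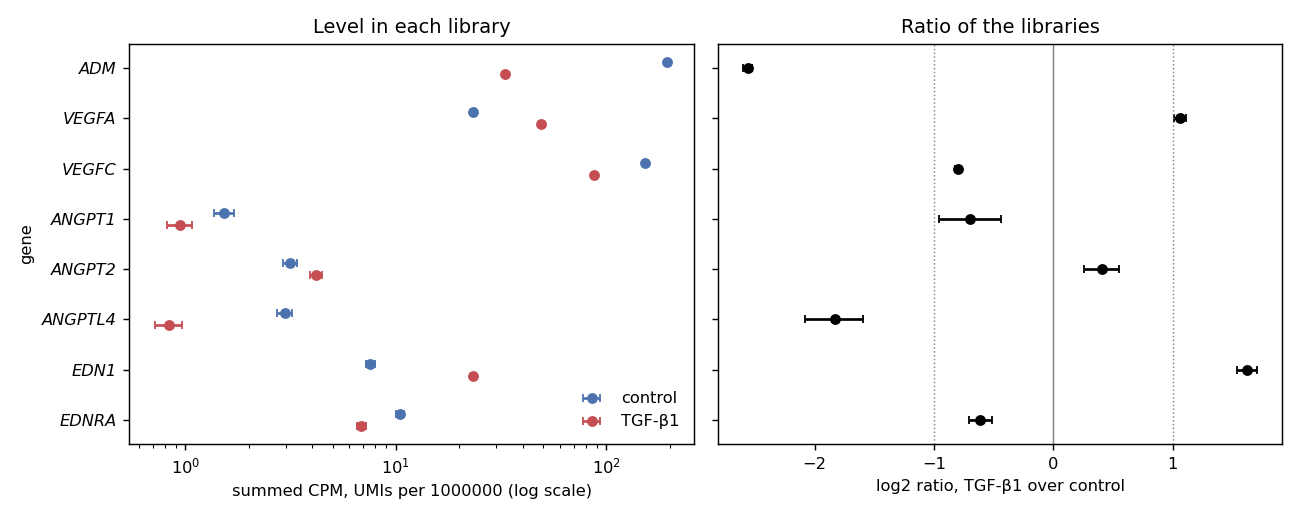
Left, summed CPM (log axis) of the 8 genes in the control and the TGF-β1 library, with exact Poisson intervals; right, the log2 ratio between the libraries (TGF-β1 over control) with exact intervals, dotted lines marking 2-fold. *ADM* lies farthest to the left with a log2 ratio of −2.56, and *EDN1* farthest to the right with 1.62.

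The order of the genes by level differed between the libraries. In control cells *ADM* came first with 195 CPM, followed by *VEGFC* with 152 CPM, *VEGFA* with 23.4 CPM, *EDNRA* with 10.5 CPM and *EDN1* with 7.56 CPM. *ANGPT2* (3.14 CPM, interval 2.91 to 3.39) and *ANGPTL4* (2.96 CPM, interval 2.74 to 3.21) came next and did not differ beyond their counting intervals, and *ANGPT1* had 1.53 CPM. After TGF-β1, *VEGFC* came first with 87.2 CPM, then *VEGFA* with 48.8 CPM, *ADM* with 33.1 CPM and *EDN1* with 23.3 CPM. *EDNRA* with 6.86 CPM and *ANGPT2* with 4.16 CPM followed, and the lowest pair, *ANGPT1* (0.94 CPM, interval 0.82 to 1.08) and *ANGPTL4* (0.83 CPM, interval 0.72 to 0.96), overlapped. UMIs count 3′ ends and are not scaled by transcript length, so the order is one of captured UMIs and also depends on how well each 3′ end is annotated in the horse genome.

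*ADM* (ENSECAG00000024531) counted 41003 UMIs in control and 7263 UMIs in TGF-β1 cells, which is a 5.89-fold lower level and a log2 ratio of −2.56 (interval −2.60 to −2.52). By log2 ratio it held place 39 from the lowest among the 12116 genes. At equal depth 79.2% of control cells (interval 77.9 to 80.4) and 37.0% of TGF-β1 cells (interval 35.6 to 38.5) contained an *ADM* UMI, and these shares were 90.7% and 56.7% at full depth. The difference was therefore present both in how many cells contained the transcript and in how much of it they contained.

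Per cell, the distribution of *ADM* was shifted rather than only its share of positive cells. At equal depth the mean was 3.87 UMIs in control and 0.659 UMIs in TGF-β1 cells, and the median was 2 and 0. Among the cells with any *ADM*, the mean was 4.88 UMIs in control and 1.78 UMIs after TGF-β1. A group of strongly positive control cells had almost no counterpart after TGF-β1: at least 5 UMIs were counted in 29.9% of the former and 1.64% of the latter. Cells with 20 or more UMIs made up 1.42% of control cells, while none of the 4513 TGF-β1 cells reached this level, which allows a share of up to 0.0665% if 3 cells are taken as the limit of a count of 0. The tenth of cells richest in *ADM* held 38.0% of its UMIs in control and 51.0% after TGF-β1. The ratio of variance to mean was 5.54 and 2.16, a value that rises with the mean, so the measures of unevenness went in opposite directions.

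**Figure D2:**
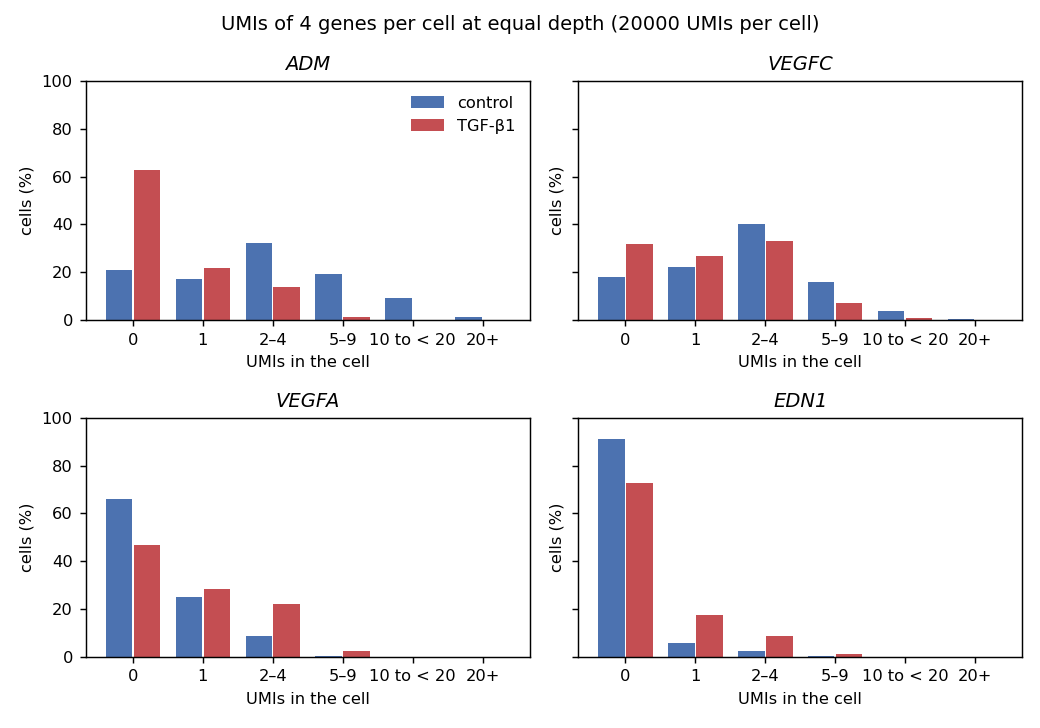
Share of cells (%, vertical axis) by their number of UMIs (horizontal axis) for *ADM*, *VEGFC*, *VEGFA* and *EDN1*, after thinning every cell to 20000 UMIs; bars stand for the 3865 control and 4513 TGF-β1 cells. For *ADM* the cells without a UMI make up 20.8% of the control and 63.0% of the TGF-β1 cells.

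*VEGFC* (ENSECAG00000012133), the lymphatic growth factor, was lower after TGF-β1 as well, but by less. It counted 31974 UMIs in control and 19165 UMIs in TGF-β1 cells, a log2 ratio of −0.80 (interval −0.83 to −0.77). At equal depth 82.1% and 68.0% of the cells contained a UMI. Of the listed genes it was the one found in the most cells of either library, at this depth and at full depth. At 10000 UMIs per cell it was found in 63.2% of control cells, against 64.1% for *ADM*. The mean at equal depth was 2.85 UMIs per cell in control and 1.67 UMIs after TGF-β1, and at least 5 UMIs were present in 19.8% and 8.07% of the cells. Its log2 ratio was −0.72, −0.49 and −1.01 in cells of 20000 to 40000, 40000 to 60000 and 60000 or more UMIs.

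*VEGFA* (ENSECAG00000009402), the main growth factor of blood vessels, moved the other way. It counted 4918 UMIs in control and 10718 UMIs in TGF-β1 cells, or a 2.09-fold higher level with a log2 ratio of 1.06 (interval 1.01 to 1.11). At equal depth 34.0% of the control and 53.1% of the TGF-β1 cells contained a UMI, and 0.362% and 2.59% contained at least 5. The gene thus stood close to the 2-fold limit, and its log2 ratio was 1.14, 1.17 and 0.87 in cells of 20000 to 40000, 40000 to 60000 and 60000 or more UMIs.

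The order of *ADM* and *VEGFA* was exchanged between the libraries, with more *ADM* than *VEGFA* UMIs in control cells and fewer after TGF-β1. At least one of *VEGFA* and *VEGFC* was present in 88.3% of the control and 84.0% of the TGF-β1 cells at equal depth. *PGF* (ENSECAG00000031273), the placental member of the family, counted 1 UMI in each library, which is at or under the floor of 3 UMIs, so no ratio is given.

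*EDN1* (ENSECAG00000011618) showed the largest positive ratio of the list. It counted 1592 UMIs in control and 5110 UMIs in TGF-β1 cells, a 3.07-fold higher level with a log2 ratio of 1.62 (interval 1.54 to 1.70). A UMI was found in 8.69% of control cells (interval 7.82 to 9.63) and 27.4% of TGF-β1 cells (interval 26.1 to 28.7) at equal depth. Among the positive cells the mean was 1.61 UMIs in control and 1.68 UMIs after TGF-β1, values that lie near their floor of 1 UMI and are not set against those of *ADM*. The highest count of a cell was 11 UMIs in control and 10 UMIs after TGF-β1.

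*EDNRA* (ENSECAG00000019798), the receptor through which endothelin 1 contracts smooth muscle, was lower. It counted 2205 UMIs in control and 1507 UMIs in TGF-β1 cells, a log2 ratio of −0.61 (interval −0.71 to −0.52). The gene was found in 16.0% and 11.6% of cells at equal depth. The ratio was −1.04 in cells of 20000 to 40000 UMIs, −0.38 in cells of 40000 to 60000 UMIs and −0.70 in cells of 60000 or more UMIs, so it varied with no steady trend over depth.

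The angiopoietins were low in both libraries and differed in direction. *ANGPT1* (ENSECAG00000016669), the agonist of TEK, counted 322 UMIs in control and 207 UMIs in TGF-β1 cells, a log2 ratio of −0.70 (interval −0.96 to −0.44). *ANGPT2* (ENSECAG00000015894), which mostly opposes ANGPT1 at TEK, counted 661 and 913 UMIs, a log2 ratio of 0.40 (interval 0.26 to 0.55). They were found in 2.61% and 1.60% (*ANGPT1*) and in 6.13% and 7.84% (*ANGPT2*) of cells at equal depth. In cells of 20000 to 40000, 40000 to 60000 and 60000 or more UMIs the log2 ratio of *ANGPT1* was −1.29, −0.46 and −0.72. That of *ANGPT2* was 0.62, 0.61 and 0.05 in the same cells.

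*ANGPTL4* (ENSECAG00000018927) was rare and mostly seen in control cells. It counted 624 UMIs in control and 183 UMIs in TGF-β1 cells, a 3.56-fold lower level with a log2 ratio of −1.83 (interval −2.08 to −1.59), and held place 94 from the lowest among all genes. It was found in 5.20% and 1.48% of cells at equal depth. At 20000 UMIs per cell the intervals of the shares did not overlap between the libraries for any of the 8 genes. They came close for *ANGPT1*, with 2.13 to 3.17 in control and 1.25 to 2.00 after TGF-β1, and for *ANGPT2*, with 5.40 to 6.94 and 7.08 to 8.67. For these genes the separation depended on the drawing of UMIs, as the intervals overlapped for *ANGPT1* at 10000 UMIs per cell (47 cells in each library, 1.22% and 1.04%) and for *ANGPT2* at full depth (14.5% and 16.6%).

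**Figure D3:**
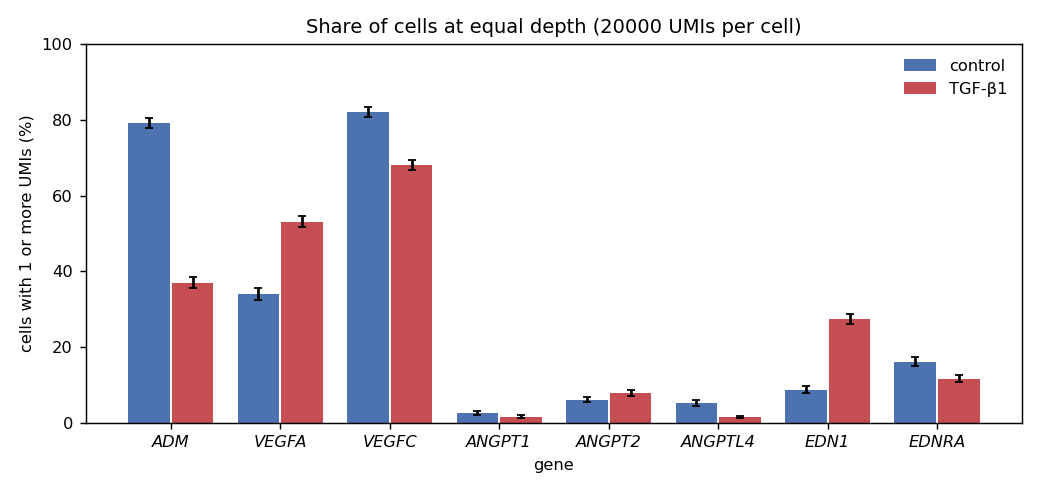
Share of cells with 1 or more UMIs (%) of each of the 8 genes at 20000 UMIs per cell in the control and the TGF-β1 library; error bars are exact binomial intervals. *ADM* and *VEGFC* are found in most control cells, and *VEGFA* and *EDN1* are found in more TGF-β1 than control cells.

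Cells were regrouped into 8 clusters after integration of the libraries, in order to see whether a difference belonged to some cells only. The clusters were built from the expression of the same cells (2000 variable genes), so these values are again a description. *ADM* was more than 2-fold lower in all 8 clusters, with log2 ratios from −2.63 to −1.16. Its level was 111 to 318 CPM in the control cells of the clusters and 18.0 to 78.2 CPM in the TGF-β1 cells, so the ranges did not overlap. The highest control level was that of cluster 2, whose leading genes include *SPP1*, *KRT7* and *KRT8*. The smallest difference was seen in cluster 7, the smallest cluster with 116 control and 60 TGF-β1 cells, while the other 7 clusters lay between −2.63 and −2.42. Without integration the clusters were largely made of 1 library each, and the ratios of *ADM* within them were −2.45, −1.38, −0.36, −0.11, −0.01 and 0.39, so its lower level in every cluster held for the integrated clusters only. The −2.45 was that of the one cluster with many cells of both libraries, 96 control and 141 TGF-β1 cells.

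*EDN1* was more than 2-fold higher in all 8 clusters, with log2 ratios from 1.34 to 2.92. Its control levels of 2.57 to 13.1 CPM lay below the TGF-β1 levels of 19.1 to 33.1 CPM in every cluster. *ANGPTL4* was lower in all 8 clusters, by more than 2-fold in 7 of them, and its cluster levels did not overlap between the libraries either. This separation rested on few UMIs. The closest levels were 1.87 CPM from 18 control UMIs in cluster 6 and 1.74 CPM from 5 TGF-β1 UMIs in cluster 7. The range of the log2 ratios of *ANGPTL4* was −2.22 to −0.87. The levels of the remaining genes overlapped between the libraries when taken over clusters.

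*VEGFA* was higher in all 8 clusters (log2 ratios 0.73 to 1.31), by more than 2-fold in 6 of them. Cluster 4, led by genes including *EPHA6*, *EDIL3* and *PTGS2*, had the highest *VEGFA* level in both libraries, with 36.6 CPM in control and 90.5 CPM in TGF-β1 cells. *VEGFC* was lower in all 8 clusters (−1.07 to −0.42) and so was *EDNRA* (−1.69 to −0.24). *ANGPT2* was higher in each of the 7 clusters in which a ratio could be given, from 0.17 to 0.71. *ANGPT1* was lower in 5 and higher in 2 of 7 clusters, and the intervals excluded 0 in 3 of the lower and none of the higher ones. These counts are of signs. The intervals of the log2 ratios excluded 0 in all 8 clusters for *ADM*, *VEGFA*, *VEGFC* and *EDN1*, in 7 of 8 for *ANGPTL4*, in 6 of 8 for *EDNRA* and in 4 of 7 for *ANGPT2*. Without integration, where few cells of one library fell into most clusters, intervals in both directions were seen for *VEGFA* and *VEGFC*. *ADM* had 2 intervals below 0 and none above, and *ANGPTL4* and *EDNRA* 1 below and none above. *EDN1* had 3 above and none below, and *ANGPT2* none that excluded 0. For *ANGPT1* 1 lay above and none below, opposite to its direction over all cells, in a cluster with 7 TGF-β1 UMIs of it.

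**Figure D4:**
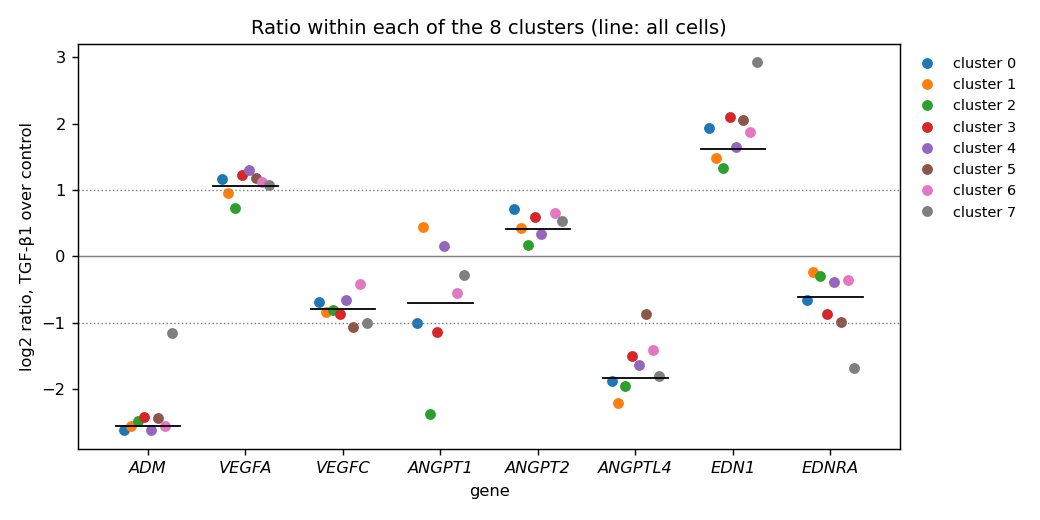
Log2 ratio between the libraries, TGF-β1 over control (vertical axis), of each gene within each of the 8 rebuilt clusters (points), with the ratio over all cells as a line; dotted lines mark 2-fold. For *ADM* 7 clusters lie close together and cluster 7 stands apart at −1.16.

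The genes of the list were then examined for their presence in the same cells. At equal depth 2 of them per cell was the most frequent number, which held for 41.0% of the control and 36.6% of the TGF-β1 cells, and none was found in 1.76% and 5.43%. For each pair the share of cells with both was divided by the product of the single shares, a value that is 1 where a gene is as frequent among the cells with the other one as elsewhere. *ADM* and *VEGFC* were found together in 65.3% of control cells, where their product was 65.0%, and in 25.6% of TGF-β1 cells, where it was 25.2%. *ADM* and *EDN1* likewise gave 1.03 in both libraries, although their levels differed in opposite directions between the libraries.

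Of the 28 pairs, 1 in control cells had an interval above 1 and none had one below 1. This pair, *ANGPT1* with *EDNRA* (1.73, interval 1.15 to 2.49), gave 1.06 when the UMIs were drawn again with another random seed, so its value depended on the UMIs drawn. In TGF-β1 cells *VEGFA* with *ANGPT2* lay above 1 (1.16, interval 1.02 to 1.32) and *ADM* with *VEGFA* below 1 (0.92, interval 0.86 to 0.98). *VEGFA* was thus found in 48.9% of the TGF-β1 cells with *ADM* and in 55.6% of those without. Taken within clusters the value for *ADM* and *VEGFA* was 0.94, with an interval that included 1. That for *VEGFA* and *ANGPT2* was 1.12, and no pair had an interval above 1 any more. The intervals are not adjusted for the number of pairs.

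Pairs of the endothelin ligand and receptor genes were taken as well. *EDN1* with *EDNRA* gave 0.85 (interval 0.63 to 1.14) in control and 0.97 (interval 0.81 to 1.14) in TGF-β1 cells, and both intervals included 1. In control cells *EDNRB* was found in 35.4% of the cells with *EDN1* and in 52.4% of those without, a value of 0.70 (interval 0.58 to 0.83) for the pair, or 0.79 within clusters. After TGF-β1 it was found in 29.9% and 31.9%, a value of 0.95 (interval 0.86 to 1.05). *CALCRL* was also found less often with *EDN1* in control cells, in 21.1% against 30.3% (0.72, interval 0.56 to 0.90). In TGF-β1 cells this was 13.0% against 15.3% (0.89), with an interval of 0.76 to 1.03 that included 1. The endothelin receptors were found together more often than their product in both libraries, with 1.21 (interval 1.10 to 1.33) in control and 1.17 (interval 1.01 to 1.34) in TGF-β1 cells. Within clusters these values were 1.16 and 1.13, and the interval after TGF-β1 then included 1. At least one of the receptor genes *EDNRA* and *EDNRB* was present in 57.1% of the control and 38.7% of the TGF-β1 cells, and the ligand with at least one of them in 3.70% and 10.1%.

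The receptors and partners of these signals were taken next. *CALCRL*, the receptor of adrenomedullin, had 25.6 CPM in control and 8.57 CPM in TGF-β1 cells, a log2 ratio of −1.58 (interval −1.65 to −1.50). Like *ADM* it was more than 2-fold lower in all 8 clusters. Its partner *RAMP2* had 42.4 and 44.3 CPM (log2 ratio 0.06), and *RAMP1*, which makes CALCRL a receptor for calcitonin gene-related peptide, had 1.05 and 0.44 CPM. At equal depth 15.1% of the control and 8.18% of the TGF-β1 cells contained *CALCRL* and *RAMP2* together, and *ADM* with both of them in 11.2% and 3.17%. The ligand and its receptor gene were hence both lower in the TGF-β1 library.

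*PAM*, needed to amidate the peptide, had 93.9 and 94.2 CPM, and *ACKR3*, a scavenger receptor of adrenomedullin and CXCL12, had 65.5 and 55.0 CPM. *MME*, the peptidase neprilysin that breaks down vasoactive peptides, was 5.10-fold higher with 1.38 CPM in control and 7.03 CPM in TGF-β1 cells (log2 ratio 2.35, interval 2.17 to 2.54). Of the 6 genes of the adrenomedullin system at 1 CPM or more, 1 was more than 2-fold higher and 1 more than 2-fold lower (3.46% of all genes were more than 2-fold lower and 3.45% higher), with a median log2 ratio of 0.03. *CALCA* had 14.9 and 19.0 CPM, *CALCB* 32 and 34 UMIs and *GPR182* 11 and 18 UMIs. *RAMP3* and *ADM2* were not matched by symbol.

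Of the VEGF receptor genes *KDR* had 54 and 35 UMIs, *FLT1* 12 and 22 UMIs and *FLT4* 2 and 6 UMIs in the control and TGF-β1 libraries. Hardly any cell contained them, and no cell type lacking these genes was available to measure free RNA, so these counts are not read as expression. The co-receptor gene *NRP1* had 94.9 CPM in control and 103 CPM in TGF-β1 cells, and *NRP2* had 34.7 and 48.7 CPM (log2 ratios 0.11 and 0.49). *VEGFA* occurred together with *NRP1* in 22.9% of the control and 40.1% of the TGF-β1 cells, as often as the product of their shares (1.00 and 0.99). *VEGFD*, the second lymphatic ligand, had 171 and 52 UMIs (log2 ratio −1.78, interval −2.26 to −1.32), a mean below 1 CPM.

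**Figure D5:**
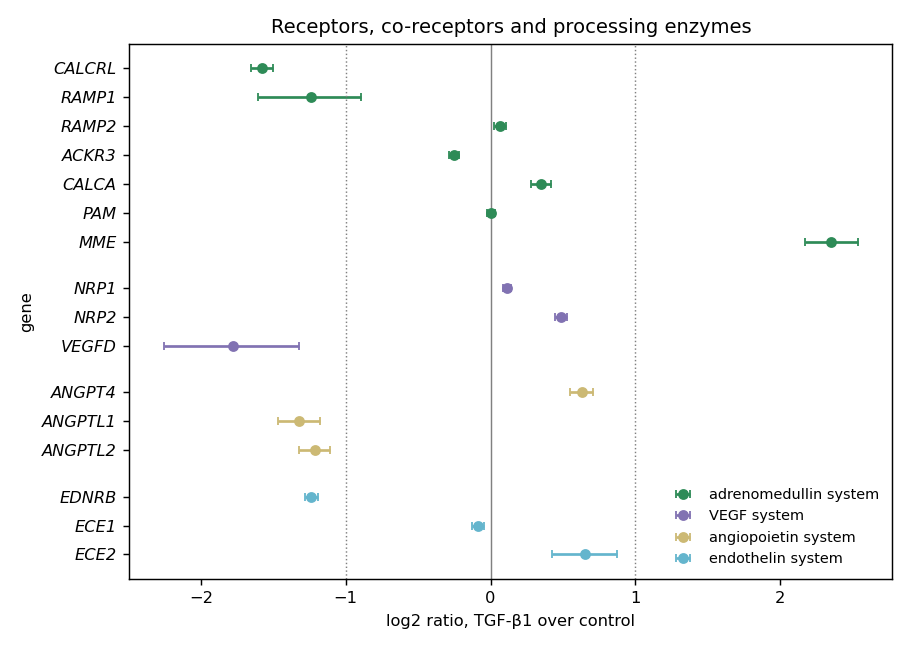
Log2 ratio between the libraries, TGF-β1 over control (horizontal axis), for receptors, co-receptors, related ligands and processing enzymes of the 4 systems, with exact intervals; dotted lines mark 2-fold. *CALCRL* and *EDNRB* lie beyond 2-fold on the lower side, *PAM* and *ECE1* lie near 0, and *MME* lies at 2.35.

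The angiopoietin receptor gene *TEK* had 30 and 44 UMIs and *TIE1* 3 in each library. *ANGPT4*, another TEK ligand, had 10.3 and 15.9 CPM (log2 ratio 0.63, interval 0.55 to 0.71) and so stood above *ANGPT1* and *ANGPT2* in both libraries. Of the 3 genes of this system at 1 CPM or more, 2 were more than 2-fold lower, as were 3.46% of all genes. These were *ANGPTL1*, with 6.19 and 2.48 CPM, and *ANGPTL2*, a secreted relative that does not bind TEK, with 11.2 and 4.82 CPM.

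In the endothelin system *EDNRB* had 64.7 CPM in control and 27.5 CPM in TGF-β1 cells, a log2 ratio of −1.24 (interval −1.28 to −1.19). It was found in 50.9% and 31.3% of cells at equal depth and was lower in all 8 clusters, in 5 of them by more than 2-fold. The converting enzyme gene *ECE1* had 51.8 and 48.8 CPM and *ECE2* 1.26 and 1.98 CPM. *EDN2* and *EDN3* had at most 8 UMIs in a library. Both endothelin receptor genes were thus lower where the ligand gene was higher.

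Responses to which these signals are usually tied were examined as lists, beside a share of 3.46% of all genes more than 2-fold lower and 3.45% more than 2-fold higher. These lists are small, and nothing particular to them is read from their counts. Of 23 hypoxia response genes at 1 CPM or more, 1 was more than 2-fold higher and none more than 2-fold lower, with a median log2 ratio of −0.07. The higher one was *PFKFB4*, which controls glycolysis, with 4.89 and 11.4 CPM, and it is named although its mean lay under the level set for naming. The glucose transporter gene *SLC2A1* had a log2 ratio of 0.91 and the oxygen sensor gene *EGLN3* one of −0.85; both were picked after their values were seen. Among 6 genes of the PPAR lipid response *CPT1A*, the entry enzyme of mitochondrial fatty acid oxidation, was more than 2-fold lower (13.9 and 6.91 CPM), and the median was 0.11.

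Of 9 genes responding to cyclic AMP, the second messenger of CALCRL, 1 was more than 2-fold lower, with a median log2 ratio of −0.26. This was the nuclear receptor gene *NR4A1* with 88.3 and 38.1 CPM. Of 8 other angiogenic ligands at 1 CPM or more, 1 was more than 2-fold lower (median −0.35), the chemokine gene *CXCL12* with 6.82 and 0.96 CPM. Another ligand of that list, *PDGFB*, was higher, with 31 and 232 UMIs and a mean below 1 CPM (log2 ratio 2.84, interval 2.30 to 3.43). Of 5 other vasoactive genes 1 was more than 2-fold lower (median 0.21), the natriuretic peptide clearance receptor gene *NPR3* with 5.93 and 0.98 CPM. *CXCL12* and *NPR3* are named for completing the counts, as their mean was under 10 CPM, and *PDGFB* was picked after its value was seen.

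Of 10 genes listed as modulators of angiogenesis, mostly inhibitors, 3 were more than 2-fold lower and 1 more than 2-fold higher, against 3.46% and 3.45% of all genes, with a median of −0.23. Lower were *SERPINF1*, encoding pigment epithelium-derived factor (155 and 71.3 CPM), *SEMA3A*, a neuropilin ligand (66.5 and 23.4 CPM), and *ADAMTS1*, a protease that binds VEGF-A (54.1 and 18.4 CPM). Higher was *VASH2*, with 17.1 and 43.1 CPM, a vasohibin that, unlike its relative VASH1, is known to promote vessel growth.

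For *ADM* and *VEGFA* the genes with the most similar pattern over the cells of a library were listed by Pearson correlation of log2(UMIs + 1) at equal depth, over 7212 genes. Cells of a library share its preparation and mares, and all coefficients were weak. In the 3865 control cells *ADM* was most like *ANXA1* (r = 0.29), *LMO7* (0.27), *ATRNL1* (0.26), *CCN5* (0.25) and *SMOC2* (0.23). In the 4513 TGF-β1 cells it was most like *PDPN* (0.16), *CCN5* (0.15), *ARHGAP29* (0.15), *IGFBP2* (0.14) and *F3* (0.14), so *CCN5* was listed in both. At the other end *EDNRB* had a coefficient of −0.17 with *ADM* in control cells, place 7209 of 7212, and was picked after this value was seen.

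*VEGFA* was most like *IL11* (0.17), *RUNX1* (0.16), *SMAD3* (0.15), *KLF9* (0.15) and *DIP2C* (0.14) in control cells. After TGF-β1 it was most like *RUNX1* (0.22), *PTGS2* (0.21), *IL11* (0.20), *RNF24* (0.20) and *GALNT1* (0.19). The genes *RUNX1* and *IL11* were thus listed in both libraries.

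The shares also varied with marker genes of other cell states, of which the following were picked after their values were seen. *ADM* was found in 83.0% of the control cells with *KRT8* and in 77.9% of the others, and in 89.6% of the control cells with *AREG* and 78.7% of the others. After TGF-β1 it was found in 50.4% of the cells with *KRT8* and 36.6% of the others, and in 31.9% of the cells with *IGFBP3* and 40.2% of the others. *EDNRA* was found in 21.1% of the control cells with the complement gene *CFD* and in 11.9% of the others.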

How the data were processed

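Passage-3 fibroblasts of 4 mares with healthy or mildly fibrotic endometria were pooled in each of 2 libraries (control and TGF-β1). Per the labels, the authors used Cell Ranger 7.1.0 with EquCab3.0, Seurat 5 and edgeR 4.2.2, while the file headers name Cell Ranger 8.0.1. The deposited matrices hold whole-number UMI counts per gene and barcode, not normalized. The authors assigned cells to mares and removed doublets with Souporcell; that assignment was not used here, and without it no count model could be fitted.

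Counts were summed over kept cells per library and divided by the library's total per 1000000. The log2 ratios and shares carry exact 95% binomial intervals and the levels exact Poisson intervals. Over all kept cells a ratio was left out where both libraries had 3 or fewer UMIs in a gene. Within clusters and outside the filters it was left out where either library had. Cells were thinned to 20000 UMIs without replacement. With 3 cells as the limit of a count of 0, the number of cells allows shares of up to 0.0776% in control and 0.0665% in TGF-β1 cells. Clusters were rebuilt in Seurat 5.3.0 (R 4.3.3; 2000 variable genes, 30 dimensions, CCA integration, resolution 0.5). Scrublet in scanpy 1.11.5 marked 2 control and 0 TGF-β1 cells and so was not used to remove doublets. Other steps used Python 3.11.15, and the scripts were tested on simulated data.

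The 10 genes and all other gene lists were chosen with earlier results of these data known. Named were all 10 genes, the receptors and partners at any level, other listed genes that averaged 10 CPM or more and differed by more than 2-fold, and the 5 genes most correlated with *ADM* and *VEGFA* in each library. Alternatives changed the cell filters, scaling, weighting, thinning, doublets, cluster settings, CPM minimum and fold limit.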

Additional observations from a re-analysis of the deposited data

Results flagged for a closer look

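Barcodes that failed the cell filters (519 in the control and 611 in the TGF-β1 library) entered no comparison above, and 3 of the listed genes had a higher level in those of the TGF-β1 library than in those of the control library, with an interval of the ratio above 1. *VEGFA* had 57.0 CPM against 25.4 CPM and *EDN1* 17.9 CPM against 8.19 CPM. *ANGPT2* had 20.6 CPM against 10.0 CPM, resting on 92 and 38 UMIs, and so was 4.97-fold (interval 3.96 to 6.16) and 3.20-fold (interval 2.24 to 4.43) above its level in the kept cells of the same library. For *VEGFA* the level was 1.17-fold and 1.09-fold, and for *EDN1* 0.772-fold and 1.08-fold, that of the kept cells.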

How the results depend on the processing

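The log2 ratio of *ADM* lay between −2.57 and −2.49 under 13 alternatives. It was −2.50 with cluster shares standardised over both libraries and −2.49 in cells of 20000 to 40000 UMIs. The 3 ranges of UMIs per cell were chosen after seeing the data. Of the listed genes, 1 was more than 2-fold lower with a minimum of 10 CPM, 4 were in cells of 20000 to 40000 UMIs, and 5 were more than 1.5-fold lower, against 2 as reported. In cells of 60000 or more UMIs 3 were more than 2-fold lower and 1 was more than 2-fold higher. Gene pairs found together with an interval above 1 numbered 0 in control cells and 2 in TGF-β1 cells with another random seed, 2 in TGF-β1 cells without cycling cells, and 0 in either library within clusters. Without integration the clusters largely separated by library, and 3 genes had the same sign in every cluster, against 7 with it. *ADM* was then more than 2-fold lower in 2 of 6 such clusters, and its highest log2 ratio was 0.39, in a cluster of 37 control and 2595 TGF-β1 cells. The cause of these changes was not tested, and some alternatives also leave fewer cells or genes. No paired analysis was possible because the assignment of cells to the 4 mares was not used here, and with 1 library a group no replicate could be left out. Genes under about 1 CPM rest on few UMIs, and whether a difference would recur in other mares or cultures could not be assessed.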

Other observations

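The *ANGPT2* transcript was highest in the barcodes with less than 20000 UMIs and 4% or more mitochondrial UMIs. There it had 15.7 CPM in 205 control barcodes and 28.0 CPM in 438 TGF-β1 barcodes, against 3.14 and 4.16 CPM in the kept cells. *VEGFC* had 275 and 221 CPM in the same barcodes, against 152 and 87.2 CPM in the kept cells. In the barcodes with as few UMIs but less than 4% mitochondrial UMIs, *ANGPT2* had 6.89 CPM in 276 control and 8.22 CPM in 165 TGF-β1 barcodes. *ADM* stayed lower in the TGF-β1 library among all barcodes outside the filters, with 159 CPM in control and 36.8 CPM after TGF-β1. *ANGPTL4*, with 17 UMIs in each library, had 4.49 CPM in control and 3.81 CPM after TGF-β1 there, a log2 ratio of −0.24 (interval −1.30 to 0.82), and its TGF-β1 level was 4.58-fold (interval 2.61 to 7.53) that of the kept cells.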
